A study of Arabidopsis thaliana with 12 samples.

Results

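Transcript levels of 10 Arabidopsis genes were followed across 3 genotypes with and without flg22. Of the 10 genes 8 encode receptor-like cytoplasmic kinases, namely BIK1 (AT2G39660), PBL1 (AT3G55450), PCRK1 (AT3G09830), PCRK2 (AT5G03320), RIPK (AT2G05940), PBS1 (AT5G13160), PBL27 (AT5G18610) and BSK1 (AT4G35230). The other 2 encode the NADPH oxidases RBOHD (AT5G47910) and RBOHF (AT1G64060). They were taken by gene identifier from a list written with earlier results of these data known, and are 10 of the 33197 genes in the table of all libraries. All 10 were among the 20753 genes that passed a filter on low values (at least 1 FPKM in at least 2 of 12 libraries) and were tested.

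The series compared whole seedlings, 10 days old, of the mutant asr3-1, of OX9, and of wild type (WT, cultivar Col-0 per the labels, which name no cultivar for the other genotypes). ASR3 is a trihelix transcription factor known as a repressor of flg22-responsive genes. OX9 is 1 transgenic line in which the 35S promoter, active in most plant tissues, drives HA-tagged ASR3. Seedlings of all groups stood in water overnight and were then given flg22 for 30 min or left without it. The sources disagree on the dose, which reads 100 mM in the treatment protocol and 100 nM in the design text. The 6 groups were thus asr3-1 with flg22, OX9 with flg22, WT with flg22, and each of these genotypes without flg22. Each group had 2 libraries, from repeat 1 and repeat 2 of the experiment, and each library pooled the RNA of 2 biological replicates. In the model without a repeat term, the spread behind the p values is that between pools of different repeats. It thus includes the difference between the repeats.

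The peptide flg22, a piece of bacterial flagellin, is perceived by the receptor kinase FLS2 together with its coreceptor BAK1. Receptor-like cytoplasmic kinases sit at the plasma membrane beside such receptors, lack an extracellular domain of their own, and pass the signal on by phosphorylating other proteins. One of the best known of their substrates is RBOHD, an NADPH oxidase of the plasma membrane that makes the burst of reactive oxygen after flagellin. Most of this signalling runs through phosphorylation within minutes, while the measurements here are of transcripts.

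The stretches of 300 bases just before the annotated gene starts of 3 of the genes are printed here. They are BIK1, PCRK1 and RBOHD, the genes with the largest responses to flg22. Sequences are from the TAIR10.1 assembly, 5′ to 3′ on the strand of the gene, by the RefSeq annotation. Capitals mark the W-box, the element that WRKY transcription factors bind, searched as TTGACC or TTGACT on both strands, so that a match to TTGACT on the other strand reads AGTCAA. The windows are chr2:16531227-16531526 on the plus strand for BIK1, chr3:3016190-3016489 on the plus strand for PCRK1 and chr5:19396741-19397040 on the plus strand for RBOHD.
BIK1: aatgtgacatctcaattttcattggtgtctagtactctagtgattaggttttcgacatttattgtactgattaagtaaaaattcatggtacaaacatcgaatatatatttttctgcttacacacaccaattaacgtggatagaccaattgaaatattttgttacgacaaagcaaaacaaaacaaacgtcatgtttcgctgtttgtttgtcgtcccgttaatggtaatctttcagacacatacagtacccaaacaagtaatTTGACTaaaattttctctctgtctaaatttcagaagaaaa
PCRK1: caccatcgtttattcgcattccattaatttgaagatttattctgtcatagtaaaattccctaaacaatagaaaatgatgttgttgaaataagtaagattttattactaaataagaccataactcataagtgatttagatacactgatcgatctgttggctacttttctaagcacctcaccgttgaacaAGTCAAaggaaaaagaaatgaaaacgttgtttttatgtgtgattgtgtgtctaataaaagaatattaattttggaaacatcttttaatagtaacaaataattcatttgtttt
RBOHD: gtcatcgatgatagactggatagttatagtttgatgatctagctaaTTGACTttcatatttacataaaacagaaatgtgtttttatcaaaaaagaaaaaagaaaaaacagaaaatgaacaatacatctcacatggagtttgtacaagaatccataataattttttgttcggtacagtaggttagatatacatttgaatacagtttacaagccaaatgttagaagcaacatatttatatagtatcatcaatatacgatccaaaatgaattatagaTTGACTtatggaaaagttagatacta

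The W-box stood in the window of 5 of the 10 genes, BIK1, PCRK1, PCRK2, RIPK and RBOHD. Of the windows of the same length before 27438 protein-coding genes, 32.27% held it. BIK1 had 1 match at -40 to -35 from the gene start, PCRK1 1 match on the other strand at -112 to -107, and PCRK2 1 match at -15 to -10. RBOHD had 2 matches, at -254 to -249 and -26 to -21, and RIPK also had 2, at -299 to -294 on the other strand and at -291 to -286. The GT element GGTTAA, a motif of trihelix factors, was found before PBL1 alone among the 10 genes and before 17.28% of all genes. The rapid stress response element CGCGTT (3.08% of all genes) and the GCC box GCCGCC (2.26%) were found before none of the 10. In the 10 windows no match to 1 of the 4 motifs overlapped another match. A match describes letters in this window, and the window of PCRK2 also overlaps the annotated gene AT5G00910.

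**Figure D1:**
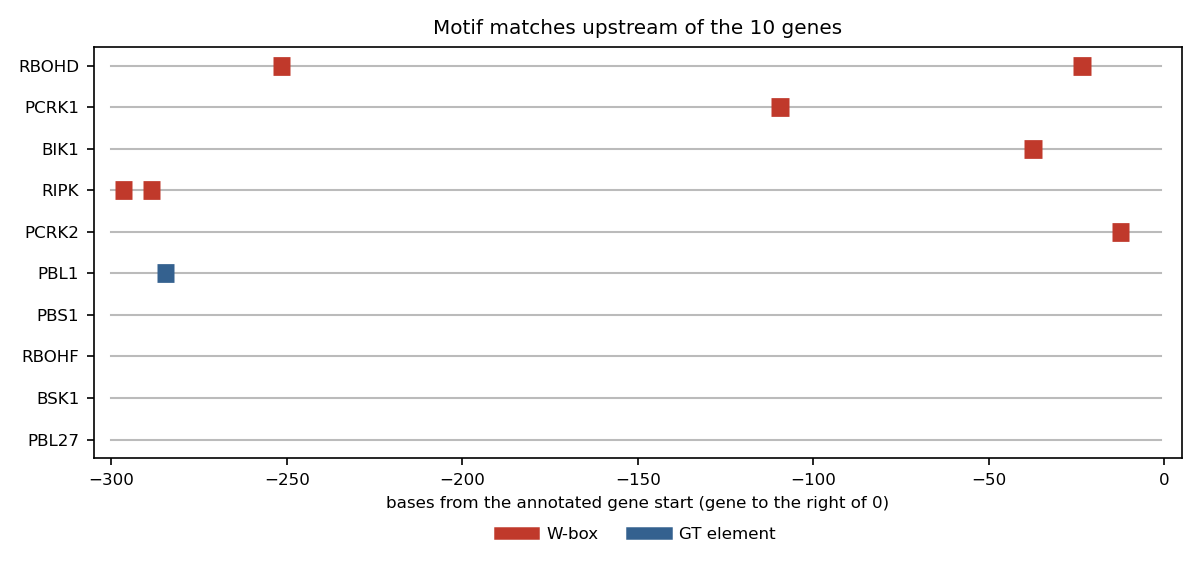
Matches to the W-box and the GT element in the 300 bases before the annotated start of each of the 10 genes, with the position in bases from the start on the x axis and 1 line per gene, in the order of their flg22 response in repeat 2. The 5 genes at the top, RBOHD, PCRK1, BIK1, RIPK and PCRK2, carry the W-box matches, and PBL1 carries the GT element.

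ASR3 itself stood at 484 ± 142 FPKM with flg22 and 556 ± 48.8 FPKM without it in OX9 (SD, n = 2 each), and at 2.99 ± 0.646 and 4.54 ± 2.88 FPKM in asr3-1, against 7.44 ± 1.55 and 7.91 ± 2.37 FPKM in WT. With flg22 both asr3-1 libraries (2.53 and 3.44 FPKM) lay below both WT libraries (8.53 and 6.34). Without it asr3-1 of repeat 1 (6.58 FPKM) lay above WT of repeat 2 (6.24). No gene was called in asr3-1 against WT in either condition, so ASR3 did not pass as lower there. FPKM values are scaled to transcript length and library size, so levels can be compared between genes, but the number of reads behind them is unknown. Between 19137 and 19621 genes per library reached 1 FPKM. The repeats differed as a whole. The metallothionein gene MT1A made up 10.2 to 16.1% of the FPKM sum in repeat 2 and 1.46 to 1.78% in repeat 1, and 44.5% of all genes passed the test for a difference between repeats in seedlings without flg22. Markers of green tissue and of root were above 0 in every library. The lowest green marker value was 1739 FPKM (PSAD-1). The root markers ran from 1.12 FPKM (NRT2.1) to 1807 FPKM (BGLU23). In whole seedlings, fewer cells of a type and less RNA per cell cannot be told apart.

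Without flg22 the 10 genes spanned less than an order of magnitude. BSK1, a kinase of brassinosteroid signalling that also associates with FLS2, was the highest at 34.3 ± 3.96 FPKM (SD over 6 libraries of 3 genotypes), and its 6 libraries lay above those of every other member. RBOHD followed at 19.1 ± 1.45 FPKM, PBL1 at 18.2 ± 1.85, RIPK at 16.3 ± 2.83, BIK1 at 15.0 ± 2.66, PBS1 at 14.3 ± 0.538 and PCRK2 at 13.2 ± 1.46. Within this run of 6 genes the ranges of neighbours overlapped. RBOHF (8.96 ± 3.06 FPKM), PCRK1 (7.66 ± 0.922) and PBL27 (6.995 ± 0.518) formed the low end, also with overlapping ranges. With flg22 the order was another one, with RBOHD at 242 ± 203 FPKM, BIK1 at 89.0 ± 59.7, PCRK1 at 76.4 ± 52.8 and RIPK at 41.3 ± 25.2 ahead of BSK1 at 33.2 ± 3.51. The large SDs of these genes come with a split of their flg22 values by repeat, as the plot of FPKM in every library shows, and all neighbours in that order overlapped.

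**Figure D2:**
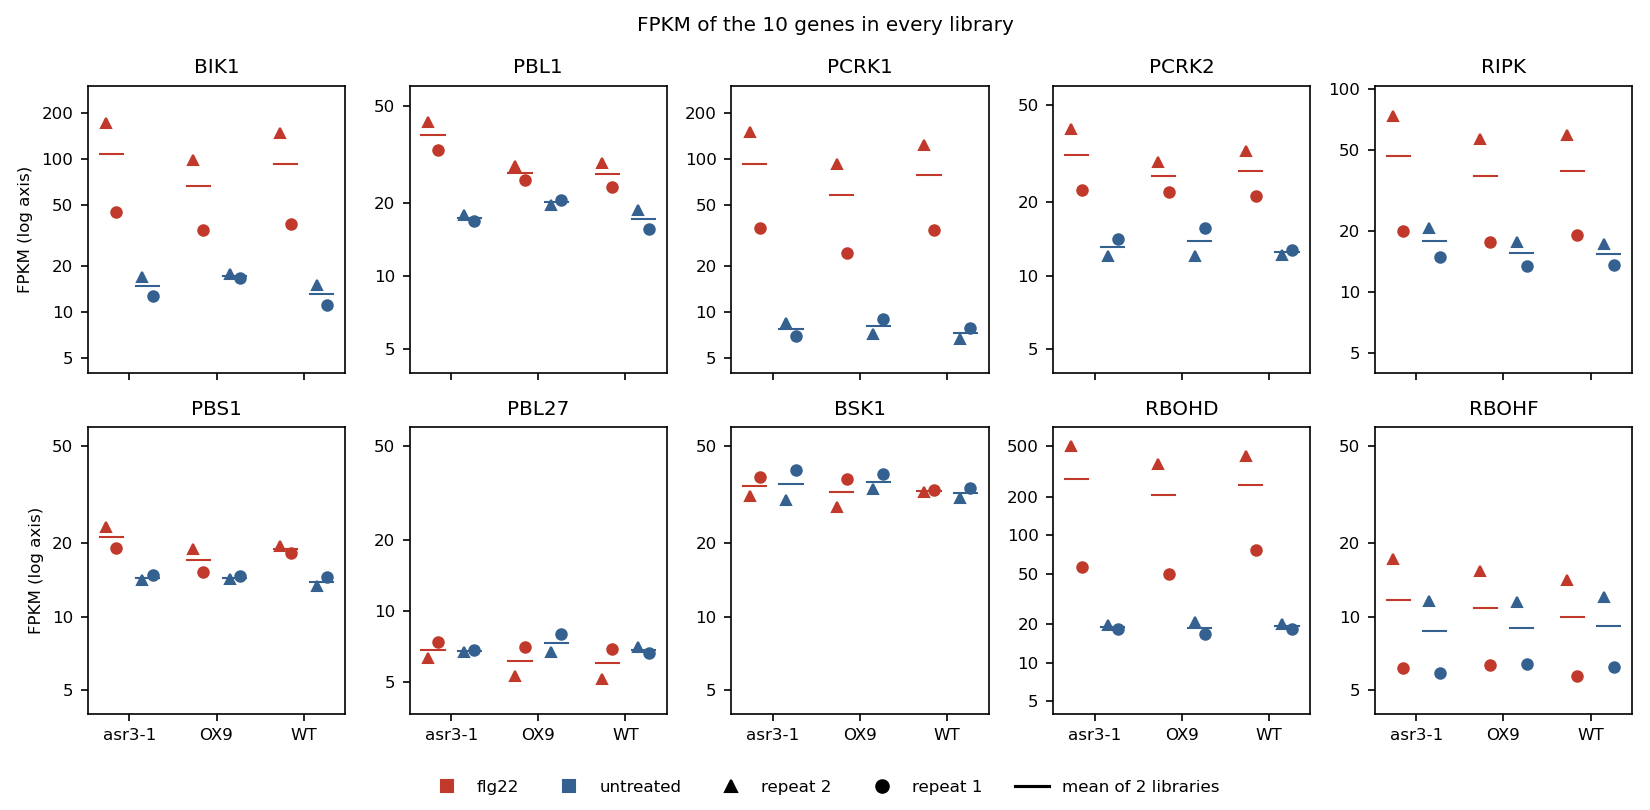
FPKM (log axis, scaled separately in each panel) of the 10 genes in each of the 12 libraries, by genotype, with flg22 in red left of untreated in blue, triangles for repeat 2, circles for repeat 1 and a line at the mean of 2 libraries. In BIK1, PCRK1, RIPK and RBOHD each triangle with flg22 is far above the circle beside it, while in BSK1 the treatments overlap, and in PBL27 the 3 triangles with flg22 (5.14 to 6.32 FPKM) lie below all untreated values (6.67 FPKM or more).

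BIK1 is the cytoplasmic kinase that binds the FLS2 complex and phosphorylates RBOHD. Its gene lies on chromosome 2 at 16531527 to 16533986 of TAIR10.1 (plus strand, 6 exons). In repeat 2 it stood at 171, 99.0 and 147 FPKM in asr3-1, OX9 and WT with flg22, against 16.9, 17.8 and 15.0 FPKM in the same genotypes without it. In repeat 1 the values were 45.2, 34.3 and 37.4 FPKM with flg22, against 12.7, 16.8 and 11.04 FPKM without. All 6 libraries with flg22 lay above all 6 without. The ratio of flg22 to untreated was 5.56 to 10.2 in the repeat 2 pairs and 2.05 to 3.56 in the repeat 1 pairs. Averaged over the 3 genotypes, the response was 2.22 on the log2(FPKM + 1) scale (SE 0.46, adjusted p = 0.037).

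PBL1, the closest relative of BIK1 and partly redundant with it, responded less and also within both repeats. In repeat 2 it had 43.2, 28.2 and 29.1 FPKM in asr3-1, OX9 and WT with flg22, against 17.8, 19.7 and 18.7 FPKM without it. Repeat 1 gave 33.0, 24.9 and 23.2 FPKM with flg22, against 16.9, 20.6 and 15.6 FPKM without. The groups did not overlap, and the highest pair of values was that of asr3-1 with flg22. The mean response was 0.68 (SE 0.11, adjusted p = 0.017), with ratios of 1.43 to 2.43 in repeat 2 and 1.21 to 1.96 in repeat 1.

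PCRK1 and PCRK2 are related kinases that act in pattern-triggered immunity. PCRK1 (chromosome 3, 3016490 to 3019103, plus strand) was among the lowest of the 10 genes at rest and the third highest with flg22. In repeat 2 it had 149.7, 92.2 and 123 FPKM in asr3-1, OX9 and WT with flg22, against 8.44, 7.12 and 6.60 FPKM without it. In repeat 1 it had 35.4, 24.3 and 34.1 FPKM with flg22, against 6.96, 8.95 and 7.90 FPKM without. The lowest value with flg22, in OX9 of repeat 1, was still 2.71 times that of its untreated partner, and the ratios of repeat 2 ran from 12.95 to 18.6. The mean response was 2.84 (SE 0.49, adjusted p = 0.0185). PCRK2 had 40.1, 29.3 and 32.6 FPKM in asr3-1, OX9 and WT of repeat 2 with flg22, against 12.1, 12.1 and 12.2 FPKM without it. The repeat 1 values were 22.4, 22.02 and 21.2 FPKM with flg22, against 14.1, 15.7 and 12.7 FPKM without. All 6 libraries with flg22 lay above all 6 without (mean response 1.00, SE 0.18, adjusted p = 0.024).

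RIPK phosphorylates the immune regulator RIN4 and also RBOHD. In repeat 2 it had 74.3, 57.0 and 59.7 FPKM in asr3-1, OX9 and WT with flg22, against 20.8, 17.6 and 17.2 FPKM without it. Repeat 1 gave 20.1, 17.6 and 19.1 FPKM with flg22, against 14.9, 13.5 and 13.6 FPKM without. Every pair was higher with flg22, but the flg22 libraries of repeat 1 lay within the untreated range of repeat 2, and the mean response of 1.07 (SE 0.44) gave an adjusted p = 0.291. PBS1, a relative of BIK1 that is cleaved by a bacterial protease, moved within a narrow range. It had 23.3, 19.0 and 19.5 FPKM in asr3-1, OX9 and WT of repeat 2 with flg22, against 14.1, 14.2 and 13.4 FPKM without it. In repeat 1 it had 19.1, 15.2 and 18.3 FPKM with flg22, against 14.9, 14.7 and 14.5 FPKM without. The mean response was 0.38 (SE 0.10, adjusted p = 0.085).

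PBL27, which relays the chitin signal of the receptor CERK1, and BSK1 did not pass any test of flg22 response at the deposited scale. PBL27 ran from 5.14 to 7.40 FPKM with flg22, against 6.67 to 8.01 FPKM without, and was higher with flg22 in 2 of 6 pairs (mean response -0.13, SE 0.12). Its gene overlaps the protein-coding gene AT5G18620 on the opposite strand, and since the strand of the reads is not stated, reads of these genes cannot be told apart. BSK1 ran from 28.1 to 37.6 FPKM with flg22, against 30.03 to 39.8 FPKM without, and was also higher in 2 of 6 pairs (mean response -0.05, SE 0.12). Without a passed test an equal level is not shown.

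RBOHD (chromosome 5, 19397041 to 19402061, plus strand, 8 exons) had the largest response of the 10 genes in the mean of the genotypes and in repeat 2, while in repeat 1 that of PCRK1 was larger. In repeat 2 it stood at 493, 362 and 415 FPKM in asr3-1, OX9 and WT with flg22, against 19.8, 20.8 and 20.3 FPKM without it. In repeat 1 it stood at 56.6, 49.5 and 76.1 FPKM with flg22, against 18.4, 17.0 and 18.3 FPKM without. The untreated libraries all lay between 17.0 and 20.8 FPKM, and the levels after flg22 fell into separate ranges in the repeats. The ratios were 17.4 to 24.9 in repeat 2 and 2.91 to 4.16 in repeat 1. The mean response was 2.996 (SE 0.70, adjusted p = 0.058). RBOHF, which shares functions with RBOHD in stomatal and defence signalling, was split by repeat with or without the peptide. It had 17.2, 15.4 and 14.2 FPKM in asr3-1, OX9 and WT of repeat 2 with flg22, against 11.6, 11.5 and 12.1 FPKM without it. Its repeat 1 values were 6.15, 6.34 and 5.72 FPKM with flg22, against 5.90, 6.42 and 6.20 FPKM without. The mean response was 0.18 (SE 0.38, adjusted p = 0.991).

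By the model without a repeat term, 4 of the 10 genes passed as higher in the mean of the 3 genotypes (BIK1, PBL1, PCRK1 and PCRK2). None passed as lower, where 4.1% of all genes tested were called and 3.83% were called higher. The median response of the 10 was 0.84, against -0.03 over all genes tested. With the replicate number as a block, 7 rose, adding RIPK (adjusted p = 0.032), PBS1 (0.017) and RBOHD (0.010), where 15.8% of all genes were called. Quantile normalization moved the median of all genes to -0.13, and the same number of members, 4, was called. In 6 of the 10 genes all 6 libraries with flg22 lay above all 6 without, which held for 6.19% of all genes. Leaving out 1 library at a time left between 0 and 5 members called. The PCRK1 call ended without any 1 of the 6 untreated libraries (adjusted p up to 0.071), and the BIK1 call ended without any of these or any flg22 library of repeat 2 (up to 0.11). The PCRK2 call ended without any untreated library or the flg22 library of OX9 or WT of repeat 2 (up to 0.088). The PBL1 call ended without the untreated asr3-1 library of either repeat, the untreated OX9 library of repeat 2, the untreated WT library of repeat 1, or the flg22 library of OX9 or WT of repeat 2 (up to 0.068). With no filter on low values, BIK1 had an adjusted p of 0.054.

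Within single genotypes, with 2 libraries a group, no member passed. In asr3-1 the responses were 2.51 for BIK1, 3.10 for PCRK1 and 3.07 for RBOHD, with 0.193% of all genes called. In OX9 they were 1.70, 2.43 and 2.77, and no gene passed (0.0%). In WT they were 2.44, 3.002 and 3.14, with 0.101% of all genes called. At an unadjusted p under 0.05 there were 6 members in asr3-1, 2 in OX9 and 6 in WT, where 7.86%, 4.57% and 6.78% of all genes stood. With the replicate number as a block 1 member rose in asr3-1, PBL1 (log2 1.08, adjusted p = 0.0135, where 1.81% of all genes were called and 1.59% called higher), and none in OX9 (0.0482%) or WT (0.564%). A block with its own repeat term for each treatment, added after the data were seen, called 7 members in asr3-1 (13.1% of all genes called), 5 in OX9 (9.07%) and 7 in WT (11.3%), and 7 in the mean of the genotypes (23.8%). The libraries with flg22 did not overlap those without for 6 members in asr3-1 (14.7% of all genes were higher without overlap), 7 in OX9 (13.5%) and 7 in WT (15.8%).

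The split by repeat was then tested directly. A model with separate flg22 responses for repeat 2 and repeat 1 used the libraries of the 3 genotypes within a repeat in place of replicates, so its p values say nothing about further repeats. In repeat 2, 8 of the 10 genes rose, where 24.2% of all genes were called and 14.1% were called higher. The responses there were 4.30 for RBOHD, 3.85 for PCRK1, 2.96 for BIK1, 1.72 for RIPK and 1.402 for PCRK2, with adjusted p of at most 4.7e-06, and 0.78 for PBL1 (0.0041), 0.53 for PBS1 (0.0016) and 0.38 for RBOHF (0.013). The RBOHF call ended without the untreated asr3-1, the flg22-treated asr3-1 or the untreated OX9 library of repeat 2, with an adjusted p of up to 0.076. PBL27 (-0.25, adjusted p = 0.122) passed as lower after quantile normalization (-0.32, adjusted p = 0.037), under which the median of all genes was -0.17, and BSK1 was at -0.04 (0.837). In repeat 1, 6 of the 10 genes rose, where 10.3% of all genes were called and 7.41% were called higher. The responses there were 1.69 for RBOHD, 1.84 for PCRK1, 1.47 for BIK1, 0.41 for RIPK, 0.60 for PCRK2 and 0.58 for PBL1. Of these PBL1 had the highest adjusted p, 0.043, which reached 0.052 after quantile normalization, 0.062 with no filter and up to 0.187 without 1 library. That call ended without either asr3-1 library of repeat 1, the flg22 OX9 library of repeat 1, the untreated OX9 library of repeat 2, or any of the 4 WT libraries. PBS1 (0.23, adjusted p = 0.152), RBOHF (-0.02), PBL27 (-0.01) and BSK1 (-0.06) did not pass in repeat 1.

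**Figure D3:**
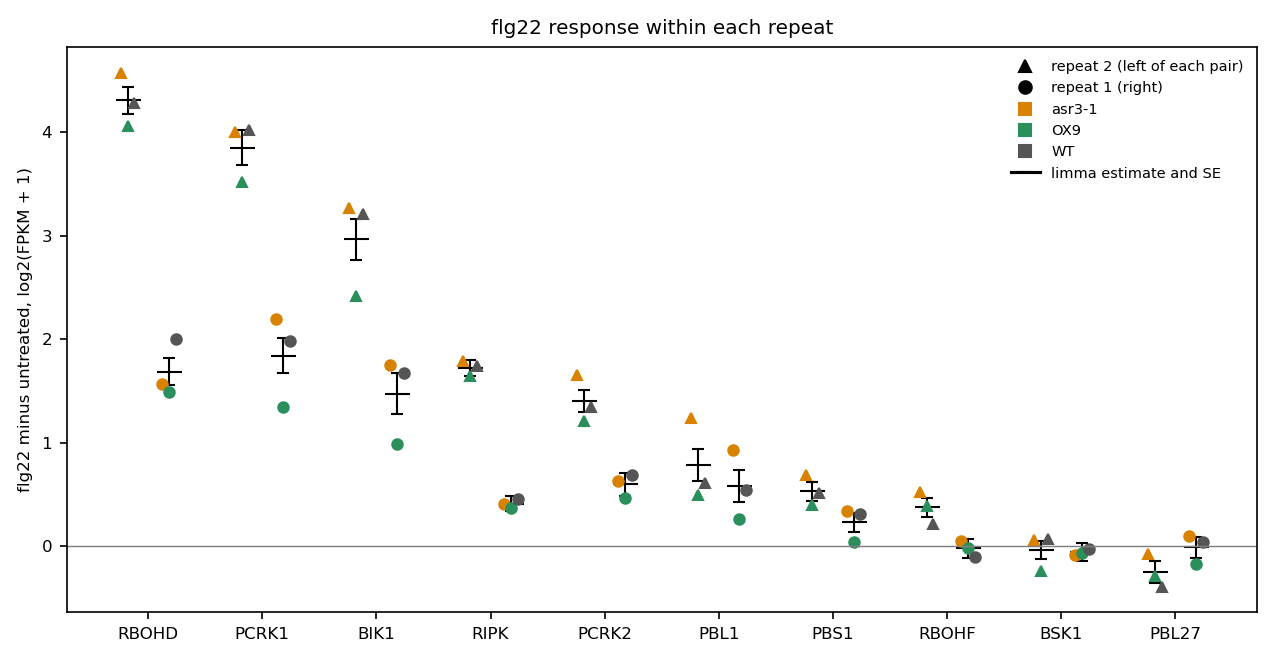
Difference of flg22 and untreated on the log2(FPKM + 1) scale for each genotype (colours), with repeat 2 left of repeat 1 for each gene, and the limma estimate with its standard error in black. RBOHD, PCRK1 and BIK1 lie between 2.4 and 4.6 in repeat 2 and between 0.99 and 2.2 in repeat 1, and PBL1 between 0.50 and 1.24 in repeat 2 and between 0.26 and 0.93 in repeat 1.

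The response differed between the repeats for 5 of the 10 genes, all larger in repeat 2, where 11.3% of all genes differed and 8.13% had the larger value in repeat 2. The differences of response, repeat 2 minus repeat 1, were 2.62 for RBOHD (SE 0.18, adjusted p = 5.1e-05), 2.01 for PCRK1 (SE 0.24, 5e-04), 1.49 for BIK1 (SE 0.28, 0.0081), 1.31 for RIPK (SE 0.11, 7.8e-05) and 0.81 for PCRK2 (SE 0.15, 0.0071). These 5 calls held when any 1 library was left out. The 5 genes are those with a W-box in the window before the start, a coincidence seen after the values were known and given without a test. RBOHF (0.40, adjusted p = 0.088), PBS1 (0.30, 0.203), PBL1 (0.20, 0.663), BSK1 (0.02, 0.954) and PBL27 (-0.24, 0.394) did not pass. Outside the 10 genes, the receptor gene FLS2 had a difference of -0.15 (adjusted p = 0.798), and FRK1, a classic flg22 marker, one of -2.38 (0.0999, not past the test). The flg22 markers WRKY33 and CYP81F2 had larger responses in repeat 2 in all 3 genotypes. WRKY33 ran from 4.76 to 5.50 in repeat 2 and from 2.11 to 3.59 in repeat 1. CYP81F2 ran from 6.56 to 7.69 in repeat 2 and from 2.49 to 4.25 in repeat 1. A larger response in repeat 2 was thus not particular to the 10 genes.

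Several measures moved with the repeats. MT1A is given above. The summed FPKM of 5 green tissue markers was 17605 to 21489 with flg22 and 21341 to 22631 without it in repeat 2, and 22590 to 25116 with flg22 and 27053 to 30386 without it in repeat 1. The summed FPKM of 6 root markers was 1244 to 1531 with flg22 and 800.4 to 1336 without it in repeat 2, and 1362 to 1454 with flg22 and 1679 to 1921 without it in repeat 1. This root sum is mostly BGLU23 (706 to 1807 FPKM), since no other root marker exceeded 91.4 FPKM. Not every marker moved with its sum. At rest PIP2;4 had 27.1 to 28.5 FPKM in repeat 2 and 17.6 to 25.9 in repeat 1. The green marker LHCB2.1 had 3724 to 3990 FPKM at rest in repeat 2 and 2821 to 3271 in repeat 1. None of these 11 markers was at 0 in any library. Their part in the difference between repeats was not tested.

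At rest the repeats differed for 2 of the 10 genes, where 44.5% of all genes differed and 23.1% were higher in repeat 2. RBOHF was higher in repeat 2 by 0.83 (SE 0.09, adjusted p = 9.9e-05) and RIPK by 0.38 (SE 0.07, adjusted p = 0.0026). The other genes did not pass, among them BIK1 (0.29), RBOHD (0.17), PBS1 (-0.08), PCRK2 (-0.20) and BSK1 (-0.24, adjusted p = 0.051). Without overlap, RIPK, RBOHD and RBOHF were higher in repeat 2 (28.1% of all genes were) and BSK1, PCRK2 and PBS1 lower (25.8%).

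The lines were set against WT to ask whether ASR3 affects these genes. No member passed in any of these comparisons, with or without the replicate block. Without flg22, 0.0% of all genes were called in asr3-1 and 0.00964% in OX9. With flg22, the shares were 0.0% in asr3-1 and 0.00482% in OX9, the called gene there being ASR3 itself, and 0.0385% in OX9 with the block per treatment. By unadjusted limma p values under 0.05 in the model without a repeat term, 1 member stood out in 1 comparison, PBL1 in asr3-1 with flg22, with an adjusted p = 1. With the block per treatment 1 member did in asr3-1 with flg22 (1262 genes). In OX9 1 member did without flg22 (1274 genes) and 3 with it (1608 genes).

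Without flg22, BIK1 and PBL1 were the genes whose OX9 libraries lay above the WT libraries, where 8.82% of all genes did so. BIK1 had 17.8 FPKM in OX9, against 15.0 FPKM in WT, in repeat 2, and 16.8 FPKM in OX9, against 11.04 FPKM in WT, in repeat 1 (log2 difference 0.40, SE 0.79). PBL1 had 19.7 FPKM in OX9, against 18.7 FPKM in WT, in repeat 2, and 20.6 FPKM in OX9, against 15.6 FPKM in WT, in repeat 1 (0.23, SE 0.20). No member separated asr3-1 from WT without flg22, where 9.32% of all genes were higher and 6.31% lower without overlap.

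With flg22, PBL1 separated asr3-1 from WT, where 6.69% of all genes were higher in this way. Its asr3-1 libraries stood at 148% of WT in repeat 2 and at 142% in repeat 1 (log2 0.52, SE 0.20). Over the 10 genes, 8 were higher in asr3-1 than in WT in both repeats, where 27.3% of all genes were. RBOHD was one of the exceptions, at 119% of WT in repeat 2 and 74.3% in repeat 1. In OX9 with flg22, 5 of the 10 were lower than in WT in both repeats, where 29.3% of all genes were. These included BIK1 at 67.4% of WT in repeat 2 and 91.7% in repeat 1 (log2 -0.34, SE 0.79), PCRK1 at 75.2% and 71.1% (-0.44, SE 0.84) and RBOHD at 87.4% and 64.9% (-0.40, SE 1.21). These SEs are from the model without a repeat term and exceed the differences. With the block per treatment they were 0.14 for BIK1, 0.14 for PCRK1 and 0.15 for RBOHD, and 3 of the 10 genes had an unadjusted limma p under 0.05, as did 1608 of the 20753 genes tested, with no member past the adjusted threshold (adjusted p of 0.586, 0.493 and 0.550 for BIK1, PCRK1 and RBOHD). For no member did the OX9 and WT libraries with flg22 separate without overlap, where 6.44% of all genes were higher and 7.46% lower in this way. The 10 genes share these libraries, and several ran together (r = 0.984 to 0.987 among BIK1, PCRK1 and RBOHD). Counts of members are therefore not counts of independent observations.

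The difference of the flg22 response from that of WT was also taken within each repeat. In asr3-1 it was positive in both repeats for 5 of the 10 genes (21.8% of all genes) and negative in both for 1 (28.2%). PBL1 had the largest, 0.63 in repeat 2 and 0.38 in repeat 1 (0.50 over both, SE 0.28, adjusted p = 1). Without flg22, 5 of the 10 genes were higher in OX9 than in WT in both repeats (28.1% of all genes) and none lower (23.7%), and these resting levels enter the response difference. In OX9 the difference was negative in both repeats for 8 of the 10 genes (31.2% of all genes) and positive in both for RBOHF alone (21.4%). BIK1 had the largest, -0.80 in repeat 2 and -0.68 in repeat 1 (-0.74 over both, SE 1.12, adjusted p = 1), and PCRK1 had -0.50 and -0.64 (-0.57 over both, SE 1.19, adjusted p = 1). By the limma test of the difference 0.0% of all genes were called for either line. Without a repeat term, 80 genes for asr3-1 and 95 for OX9 had an unadjusted p under 0.05, with no member among them. With the replicate block 401 and 440 genes did, with 1 member for asr3-1 and 0 for OX9. With the block per treatment 656 and 1047 genes did, with 1 member for asr3-1 and 2 for OX9. With the block that has its own repeat term per treatment, BIK1 in OX9 had an SE of 0.19 and an adjusted p of 0.675. Over all genes tested, large responses were also rarer in OX9 than in WT. The share that rose more than 2-fold on the log2(FPKM + 1) scale was 7.36% in repeat 2 and 3.58% in repeat 1. It was 8.44% and 5.15% in WT, and 9.09% and 5.67% in asr3-1. WRKY33 and CYP81F2, outside the 10 genes, had smaller responses in OX9 than in WT in both repeats, and FRK1 in repeat 2 only. Both lines were set against the same WT libraries, so their differences are not independent. The members share these libraries as well, so the counts of members are not counts of independent observations. The members named in these comparisons with WT were chosen after their values were seen.

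**Figure D4:**
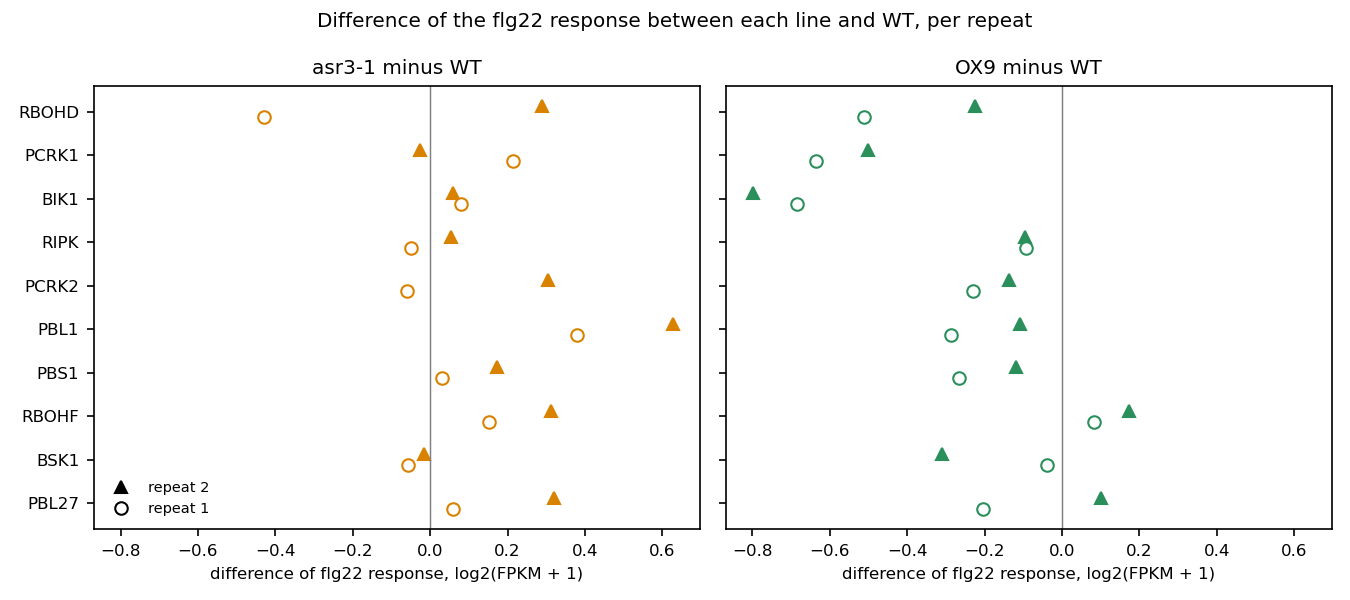
Difference of the flg22 response from that of WT on the log2(FPKM + 1) scale for asr3-1 and OX9, with filled triangles for repeat 2 and open circles for repeat 1, 1 line per gene. In OX9 both symbols lie left of 0 for 8 of the 10 genes, with BIK1 farthest at -0.80 and -0.68, and in asr3-1 PBL1 lies farthest right in both repeats.

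The response of the 10 genes was set beside that of related genes. Of 26 tested other kinases of the same subfamily (RLCK-VII), 2 rose in the mean of the 3 genotypes, NAK (log2 2.09, adjusted p = 0.027) and PBL2 (2.36, 0.036), and AT5G47070 (1.57, 0.052) and AT2G07180 (0.38, 0.056) did not pass. NAK stood at 227, 169 and 195 FPKM in asr3-1, OX9 and WT of repeat 2 with flg22, against 23.6, 24.6 and 23.5 FPKM without it. In repeat 2, 9 of the 26 rose and 2 fell, and in repeat 1, 7 rose and 1 fell, with medians of 0.34 and 0.13. Of all genes tested, 4.1% were called in the mean, 14.1% were called higher in repeat 2 and 7.41% in repeat 1. Of 8 tested relatives of BSK1, 1 rose, BSK7 (0.85, adjusted p = 0.0185), which acts with BSK8 in flg22 responses, while BSK6 (0.52, 0.188), BSK2 (-0.09) and BSK3 (-0.07) did not pass. Of 6 tested further RBOH oxidases none changed in the mean of the genotypes or in repeat 2. RBOHB had 0.578, 0.931 and 0.760 FPKM in asr3-1, OX9 and WT of repeat 1 with flg22, against 2.36, 2.41 and 1.798 FPKM without it (log2 -0.86, adjusted p = 0.024), and thus fell in repeat 1. Its difference between the repeats did not pass (0.95, adjusted p = 0.065).

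Upstream of the kinases, 3 of 8 receptors and coreceptors rose in the mean of the genotypes: FLS2 itself (1.21, adjusted p = 0.004), the chitin receptor CERK1 (1.67, 0.024) and the coreceptor SERK4 (2.44, 0.040), with BAK1 at 1.35 (0.053). All 8 rose in repeat 2 and 7 in repeat 1, where 14.1% and 7.41% of all genes were called higher. Of 11 regulators of BIK1 and RBOHD, 1 rose, CPK28 (3.62, adjusted p = 0.028), the calcium-dependent kinase that promotes turnover of BIK1. XLG2 (2.57, 0.082) and AGB1 (1.51, 0.093), G protein subunits that stabilise BIK1, and CPK4 (1.88, 0.117), a calcium-dependent kinase of flg22 signalling, did not pass in the mean and rose in both repeats. Of 9 targets or later steps, 3 rose, the MAP kinase kinase MKK4 (2.57, 0.033), the MAP kinase MPK3 (3.14, 0.036) and AT1G11960 (0.95, 0.042), and MAPKKK5, which PBL27 and BSK1 phosphorylate, had 1.57 (0.090). The medians of the 8 receptors were 2.26 in repeat 2 and 1.00 in repeat 1, against 1.09 and 0.50 for the 10 genes and -0.02 in both repeats over all genes. With the replicate block, 8 of the RLCK-VII kinases rose and 1 fell, and 2 BSK, 7 receptor, 6 regulator and 5 target genes rose with 1 target gene falling, where 15.8% of all genes were called, 2098 of 20753 as higher. Without the block 4.1% were called and 3.83% called higher.

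**Figure D5:**
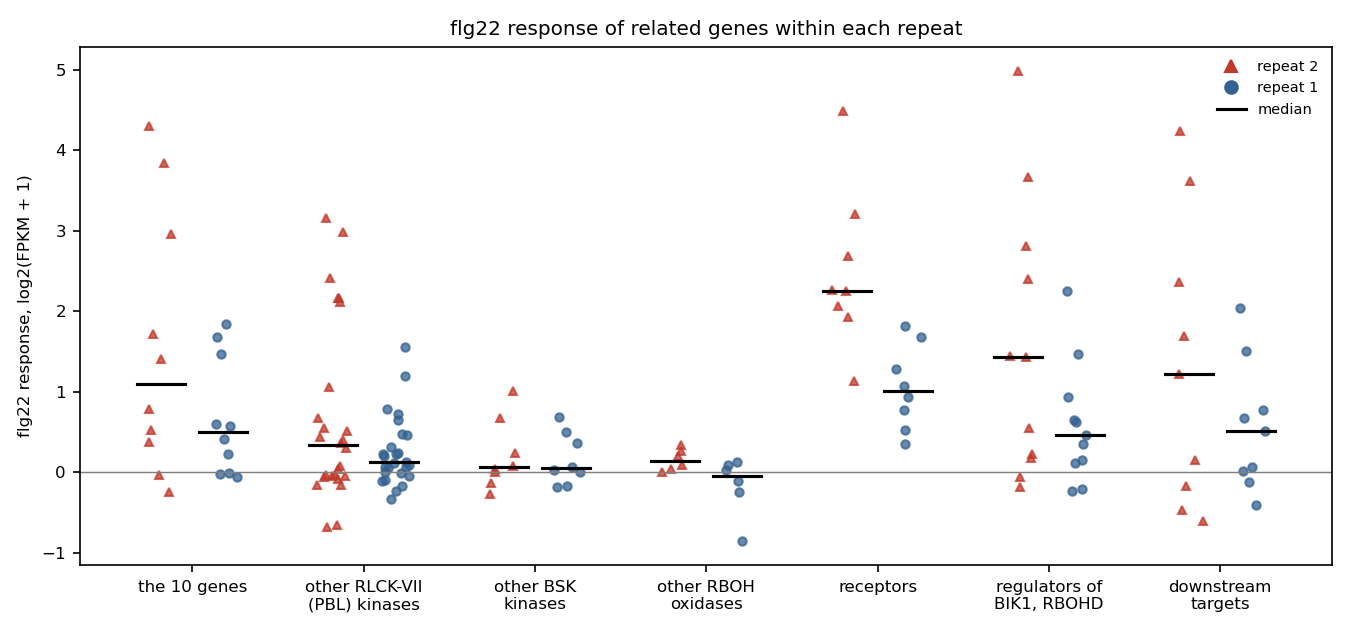
Response to flg22 on the log2(FPKM + 1) scale of each tested gene in 7 groups, with red triangles for repeat 2 left of blue circles for repeat 1 and a line at the median. The receptors lie above 0 throughout, with medians of 2.26 in repeat 2 and 1.00 in repeat 1, while the further BSK kinases and RBOH oxidases have medians near 0.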

How the data were processed

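RNA of 12 libraries was sequenced as single ends of 100 nt from TruSeq libraries, per the series' design text and the labels' protocols. The deposited values are FPKM per gene, per the file headers, in a table of all samples and in a file per sample that holds the same values rounded to 4 decimals. TopHat2 2.0.12, Cuffdiff 2.2.1, cutadapt 1.0, bcl2fastq 1.8.4 and the TAIR10 build are listed in the submitters' processing notes, and their roles are not given in the sources used here. No counts are given, so depth is unknown, no intervals from counts were computed, and the 2 libraries per group limit the precision.

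Of the lines of the table, 33373 carry an identifier. The 693 others were dropped, together with 88 repeated identifiers (176 lines). On log2(FPKM + 1) linear models were fitted to 20753 genes in R 4.3.3 with limma 3.58.1 (mean-variance trend, robust moderation). P values are 2-sided and adjusted by the Benjamini-Hochberg method over all genes tested, with a threshold of 0.05. One model had a mean for each of the 6 groups. Another had a mean for each of the 4 combinations of repeat and treatment and terms for genotype. The fits were run on simulated data with known differences and independent normal noise. For the model without a repeat term these data held no shared difference between repeats, so the run does not cover the repeat differences seen here.

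The repeats were independent runs of the experiment per the design text, and deviations from the group means correlated between same-numbered libraries of all 15 group pairs (r 0.57 to 0.81, median 0.62). The numbers therefore pair the libraries. Where the replicate number as a block changes the call of a member, its value stands in the paragraphs that count the calls. Mean responses given gene by gene are without the block. For the related genes the block is given as counts only. Alternatives were a pseudocount of 0.1, no filter, quantile normalization, the replicate block, each library left out, and, added after the data were seen, a block per treatment.

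Positions, names and sequences come from TAIR10.1 with its RefSeq annotation. None of the 100-base stretches of the 10 genes' transcripts occurs elsewhere in the genome. The 10 genes and all lists were chosen with earlier results of these data known, and the lists were written from general knowledge. From each list the 4 genes with the smallest p in the mean of the 3 genotypes are named, and ASR3, FRK1, WRKY33 and CYP81F2 may be named as checks. List genes without a name in the annotation are given by identifier, and 8 PBL kinases without an identifier at hand were not used here.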

Additional observations from a re-analysis of the deposited data

Results flagged for a closer look

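The flg22 response differed between the repeats by the limma test of the difference for 5 of the 10 genes, where 11.3% of all genes differed and 8.13% had the larger value in repeat 2. On the log2(FPKM + 1) scale, repeat 2 minus repeat 1, the values were 2.62 for RBOHD, 2.01 for PCRK1, 1.49 for BIK1, 1.31 for RIPK and 0.81 for PCRK2, each higher in repeat 2 in 3 of 3 genotypes. The measures given in the report that also moved with the repeats, MT1A and the tissue markers, were not tested as a cause.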

How the results depend on the processing

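The count of members that rose in the mean of the 3 genotypes was 4, and it was 7 with the replicate block, which rests on the pairing of libraries by repeat, and 7 with a block per treatment. In single genotypes the count was 0, and with the replicate block it was 1 in asr3-1. With the block per treatment it was 7 in asr3-1, 5 in OX9 and 7 in WT. The replicate block changed no other call of the members. Without 1 library the count in the mean of the genotypes was 0 to 5, in repeat 2 it was 7 to 8, in repeat 1 it was 5 to 6, for the difference between repeats it was 5 throughout, and at rest it was 2 to 3 members. Over all genes, calls in the mean of the genotypes were 850, against 3279 with the replicate block and 4941 with the block per treatment. They were 40, 376 and 2709 in asr3-1, 0, 10 and 1883 in OX9, and 21, 117 and 2339 in WT, where no filter gave 3. Without 1 library they were 240 to 1159 in the mean of the genotypes, 0 in asr3-1, 0 to 3 in OX9 and 0 to 8 in WT. In the model by repeat, leaving out 1 library gave 3792 to 5002 calls over all genes in repeat 2 and 1257 to 2229 in repeat 1. It gave 1700 to 2314 for the difference between repeats and 7465 to 9199 at rest. With every library, the calls over all genes in repeat 2 were 5032 (2928 higher, 2104 lower), against 8010 (2484 and 5526) with quantile normalization. That scaling also gave 1404 higher and 1087 lower in repeat 1 (1537 and 602 at the deposited scale), 727 and 194 in the mean (795 and 55) and 1526 and 1315 for the difference between repeats (1687 and 650).

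Some signs turned. The difference between repeats of BSK1 was -0.10 with quantile normalization. Without 1 library, BSK1 ran from -0.11 to 0.020 in the mean of the genotypes, from -0.12 to 0.049 in repeat 2 and from -0.067 to 0.11 for the difference between repeats. RBOHF ran from -0.047 to 0.40 in the mean and from -0.072 to 0.0088 in repeat 1, and PBL27 from -0.069 to 0.077 in repeat 1. In OX9 against WT with flg22, BIK1 ran from -1.32 to 0.63, PCRK1 from -1.38 to 0.50 and RBOHD from -1.83 to 1.02. The response difference of OX9 from WT ran from -1.71 to 0.23 for BIK1 and from -1.51 to 0.37 for PCRK1. The fits of OX9 against WT had no repeat term. A group short of 1 library thus stood for a single repeat, against both repeats in the other group. Within each repeat OX9 with flg22 lay below WT for these genes. The differences in repeats 2 and 1 were -0.56 and -0.12 for BIK1, -0.41 and -0.47 for PCRK1 and -0.19 and -0.61 for RBOHD. The response differences within repeats were also negative, -0.80 and -0.68 for BIK1 and -0.50 and -0.64 for PCRK1. The cause of the other changes of sign was not tested. In OX9 against WT 2 genes were called without flg22 and 1 with it, and 1 and 8 with the block per treatment.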

Other observations

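The genes most like each member were sought by Pearson's r of log2(FPKM + 1) over the 12 libraries, which share the treatment and the repeats, so these values are descriptions. RBOHD was nearest to AT1G31130 (r = 0.998), the ferrochelatase gene FC1 (0.998) and the GRAS family gene SCL13 (0.998). BIK1 was nearest to the wall-associated kinase-like gene WAKL6 (0.997), the formin gene FH4 (0.997) and the transcription factor gene MYB15 (0.996). PCRK1 was nearest to AT5G54860 (0.999), and RIPK to AT5G01950 (0.996) and the poly(A) polymerase gene PAPS1 (0.996). Among the 10 genes themselves, BIK1, PCRK1 and RBOHD ran closest to each other (0.984 to 0.987), and PBL27 ran opposite to RIPK (-0.80). BSK1 was nearest to APE1 (0.960), and RBOHF to EER4 (0.989) and CIP1 (0.988).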
